A study of Mus musculus with 15 samples.

Results

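The genes described here are 32 genes that mark or serve Kupffer cells, the resident macrophages of the liver, and macrophages and monocytes in general. They were chosen by name and all 32 were measured, by 53 of the 45101 probe sets of the array, among 18193 genes in all. They fall into 7 Kupffer cell identity genes, 7 genes of macrophages in general, the 3 chains of complement C1q, 3 Fc receptor genes and adaptors, 6 genes of monocyte recruitment, integrins and the oxidase, and 6 genes of lipid-associated macrophages and scavenger receptors.

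Kupffer cells line the liver sinusoids, take up particles, bacteria and spent red blood cells from portal blood, and are kept alive through the receptor Csf1r. When the liver accumulates fat, monocytes enter through the Ccl2 and Ccr2 axis and can become macrophages that carry Gpnmb, Trem2 and Cd9, often called lipid-associated macrophages. Msr1 and Marco are class A scavenger receptors, which bind modified lipoproteins and bacterial surfaces.

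Liver RNA was hybridised to Affymetrix mouse whole genome arrays, 1 mouse per array and 5 male mice per group, 10 weeks old at the start. The XKA-H group was KKAy mice gavaged once a day with XKA at 1.5 g/kg for 32 days, the KKAy model group was KKAy mice gavaged with distilled water, and the C57BL/6J normal group received distilled water as well. KKAy mice carry the lethal yellow allele of agouti and were fed a high-fat diet, whereas C57BL/6J mice were fed chow and came from another supplier, so that strain, diet and supplier cannot be told apart in any comparison with C57BL/6J. Values are probe-set intensities that were scaled to a median of 1000 on each array, so that a scaled signal of 1000 is the middle of the array. No detection calls were used here, so a signal under 1000 is called dim and no gene is called absent. A gene with several probe sets is represented by its brightest one.

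The label of the gene set was checked on the defining Kupffer cell genes. Adgre1 (the F4/80 antigen), Clec4f, Cd5l, Timd4 and Vsig4 were above 1000 on all 15 arrays, whereas Marco was under 1000 on 3 of 5 XKA-H arrays, 4 of 5 KKAy model arrays and 0 of 5 C57BL/6J arrays. Over the 15 arrays, 25 of the 32 genes had a mean signal above 1000. The other 7 genes, Ccl2, Cx3cr1, Itgam, Itgax, Gpnmb, Trem2 and Mmp12, were dim. In liver RNA, fewer macrophages and less of a transcript per macrophage cannot be told apart.

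Some livers stood apart across the whole gene set. Within the KKAy model group, replicate 4 had the highest signal for 20 of the 25 brighter genes and replicate 2 the lowest for 21, and replicates 4 and 3 were among the top 2 arrays for 23 and 19 of them. The median deviation of these genes from their means over 15 arrays was 1.02 in KKAy model replicate 4 and 0.71 in replicate 3, on the log2 scale, against 0.38 in replicate 1, -0.07 in replicate 5 and -0.24 in replicate 2. In the XKA-H group the same deviation ran between -0.58 and 0.18, and in the C57BL/6J group between -0.59 (replicate 3) and 0.17. Over all genes the median deviation was 0.20, 0.17, 0.12, -0.08 and 0.11 in KKAy model replicates 4, 3, 1, 5 and 2. It ran between -0.12 and 0.16 in the XKA-H group and between -0.17 and 0.06 in the C57BL/6J group. The arrays thus also differed as a whole, by less. The macrophage genes therefore moved together from liver to liver, and the counts of genes below are not counts of independent observations.

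**Figure D1:**
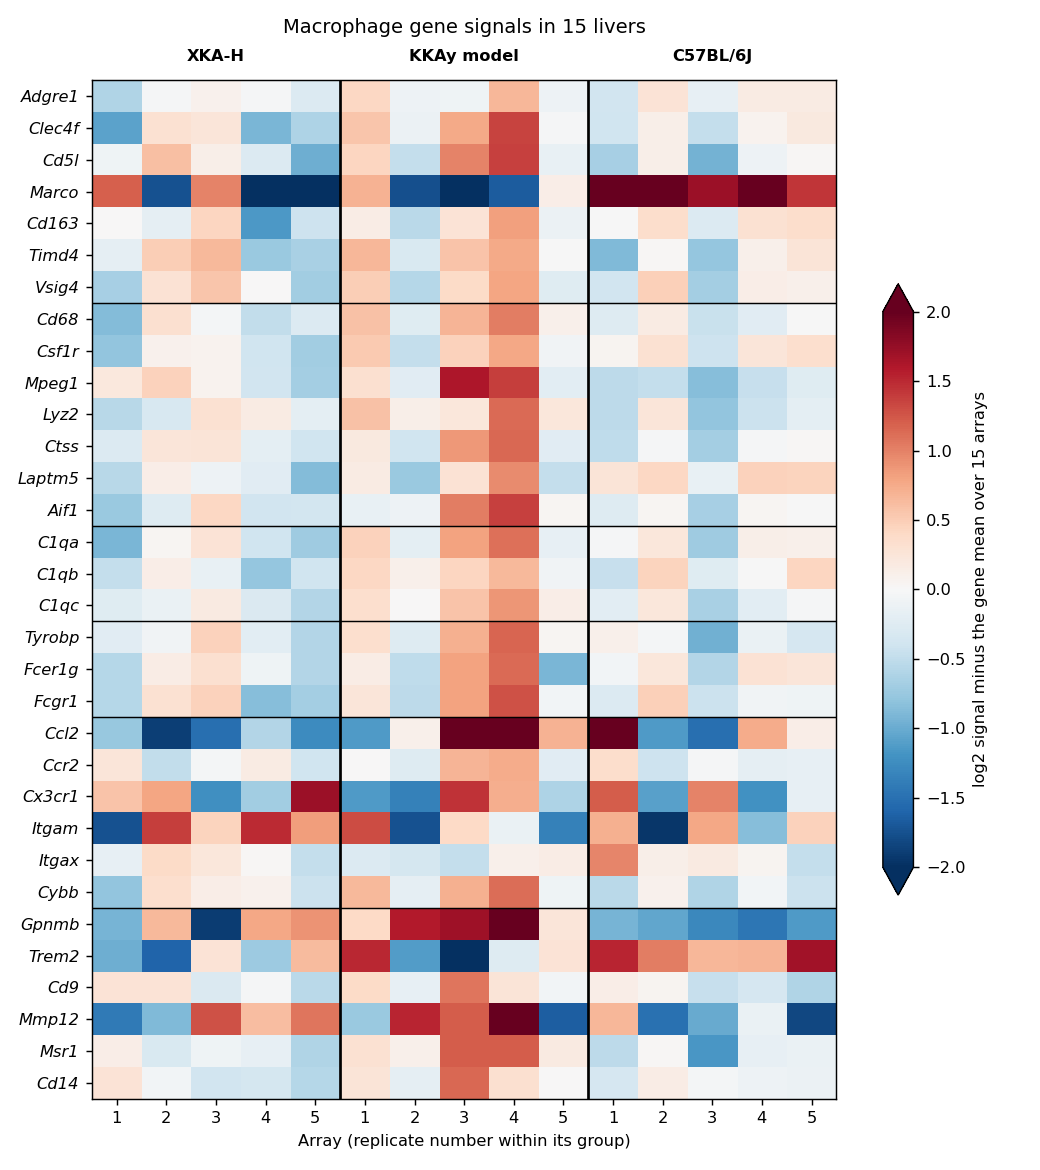
Each row is 1 of the 32 genes and each column 1 of the 15 arrays, grouped as XKA-H, KKAy model and C57BL/6J, with 5 replicates each. The colour is the log2 signal minus the mean of the gene over 15 arrays, limited to -2 and 2, and black lines part the groups and the 6 roles. KKAy model replicates 3 and 4 are red for most genes, and Marco is red throughout the C57BL/6J group.

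The first comparison asked how the KKAy model livers differed from C57BL/6J livers. In KKAy model livers Gpnmb, Msr1, Mpeg1, Lyz2 and C1qc were higher and Marco was lower at an adjusted p under 0.05 (limma, Benjamini-Hochberg over all genes). Across all 18193 genes, 10.6% were called higher and 2.43% lower in this comparison (1924 and 442 genes). That split depends on the scaling, with 1137 and 1027 genes in the values as deposited and 1602 and 1102 after quantile normalization. Of the 32 macrophage genes 18.8% were called in either direction, a share not far above the 10.6% and 2.43% of all genes combined. Brighter genes were called more often. With a mean above 1000, 20.0% of the 25 macrophage genes and 19.0% of all genes were called, which is about the same share. The median log2 change of the 32 genes was 0.50, against 0.15 for all genes, and 25 of them were positive and 7 negative (21.9%). Of all genes on the array 37.2% were negative, and of those with a mean above 1000 it was 31.5%. Without KKAy model replicate 4 the median was 0.36 and without replicate 3 it was 0.35, and in either case 3 genes were called higher. No fit left out both of these livers, so how much of the shift rests on them together was not tested. Over the 25 brighter genes, the median deviations of KKAy model replicates 1, 5 and 2 were 0.38, -0.07 and -0.24. Those of the C57BL/6J livers ran between -0.59 and 0.17.

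Gpnmb, a glycoprotein of lipid-laden macrophages, had scaled signals of 748, 1712, 1846, 3034 and 672 in KKAy model livers, against 296, 275, 233, 209 and 259 in C57BL/6J livers. All KKAy model values lay above all C57BL/6J values. The log2 change was 2.44 ± 0.55 (standard error; limma adjusted p = 0.0054), which is 5.42-fold. The C57BL/6J signals were far below the middle of the array, where the scale of a fold change is uncertain. A second Gpnmb probe set stayed at a mean of 77.4 ± 51.4 in KKAy model and 74.6 ± 64.4 in C57BL/6J livers (SD, n = 5 each) and was not called (adjusted p = 0.915 from limma with each probe set tested as its own row).

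Msr1, scavenger receptor A, had signals of 9167, 7983, 17216, 17185 and 8413 in KKAy model livers, against 5202, 7540, 3339, 6677 and 6771 in C57BL/6J livers. The groups did not overlap, and replicates 3 and 4 of the KKAy model group were about as high as each other and well above the other KKAy model livers. The log2 change was 0.99 ± 0.25 (standard error; limma adjusted p = 0.0108), or 1.98-fold. All 4 Msr1 probe sets were higher in KKAy model livers by their means. Tested as rows of their own, the 3 dimmer ones gave log2 changes of 2.58 (adjusted p = 0.0167), 1.59 (adjusted p = 0.0629) and 1.86 (adjusted p = 0.0177).

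Marco, the other class A scavenger receptor of the set, went the opposite way. Its signals were 1251, 229, 123, 245 and 849 in KKAy model livers, against 3187, 5937, 2552, 3407 and 2086 in C57BL/6J livers. The groups did not overlap, with 4 of 5 KKAy model livers under 1000. On the log2 scale the change was -3.10 ± 0.78 (standard error; limma adjusted p = 0.0109). A second Marco probe set averaged 593 ± 313 in KKAy model and 1007 ± 477 in C57BL/6J livers (SD, n = 5 each) and was not called as a row of its own (log2 change -0.70, adjusted p = 0.55). In KKAy model livers this second probe set was the brighter one, against a mean of 539 for the first. The first was thus chosen through its signal in C57BL/6J livers, the group where it was high.

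**Figure D2:**
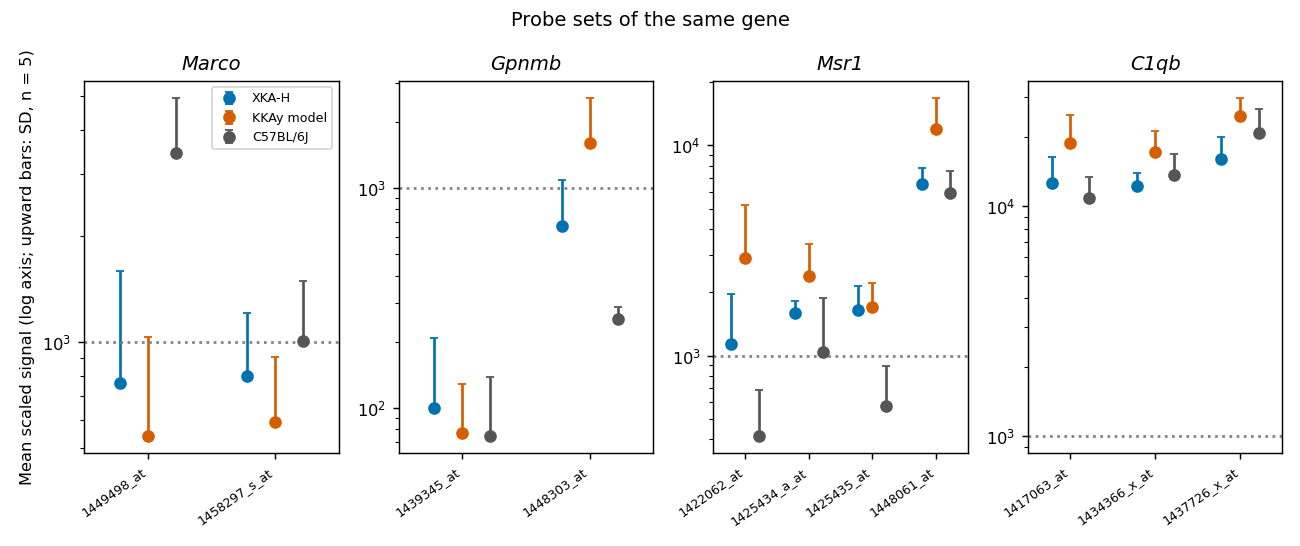
Mean scaled signal (log axis) of each probe set of Marco, Gpnmb, Msr1 and C1qb in XKA-H, KKAy model and C57BL/6J livers, with upward bars of 1 SD (n = 5) and a dotted line at 1000. The 4 Msr1 probe sets share an order with C57BL/6J lowest, whereas the second probe sets of Marco and Gpnmb show little of the difference seen with the chosen ones.

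Mpeg1, which encodes perforin-2 of phagocytes, had signals of 53590, 36682, 132171, 111515 and 37124 in KKAy model livers, against 29868, 30814, 23920, 31332 and 36223 in C57BL/6J livers. The groups did not overlap, but KKAy model replicates 2 and 5 were within a few percent of the highest C57BL/6J liver. This amounted to a log2 change of 1.09 ± 0.30 (standard error; limma adjusted p = 0.0217). The highest adjusted p was 0.0729 when 1 array was left out, and Mpeg1 was no longer called without KKAy model replicate 3, KKAy model replicate 4 or C57BL/6J replicate 3.

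Lyz2, the lysozyme of macrophages and neutrophils, had signals of 32235, 23491, 25292, 47447 and 25245 in KKAy model livers, against 15073, 25467, 12505, 15950 and 18782 in C57BL/6J livers. The groups overlapped through C57BL/6J replicate 2. The fitted log2 change was 0.80 ± 0.21 (standard error; limma adjusted p = 0.0147), and the call was lost without C57BL/6J replicate 3 (adjusted p = 0.0522).

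C1qc, a chain of the complement starter C1q that liver macrophages make, had signals of 15592, 12472, 18306, 22811 and 13477 in KKAy model livers, against 10690, 14463, 7904, 10719 and 12098 in C57BL/6J livers. The groups overlapped through C57BL/6J replicate 2. On the log2 scale the change was 0.56 (standard error 0.18) and the adjusted p of 0.0478 from limma lay just inside the threshold, and the call was lost in 9 of the 15 fits that left out 1 array. C1qa and C1qb, whose genes lie beside C1qc on chromosome 4, had log2 changes of 0.45 and 0.27 and were not called (adjusted p = 0.293 and 0.42 from limma). A second C1qb probe set, at 18800 ± 6088 in KKAy model and 10870 ± 2520 in C57BL/6J livers (SD, n = 5 each), did pass when tested as its own row (log2 change 0.76, adjusted p = 0.04).

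**Figure D3:**
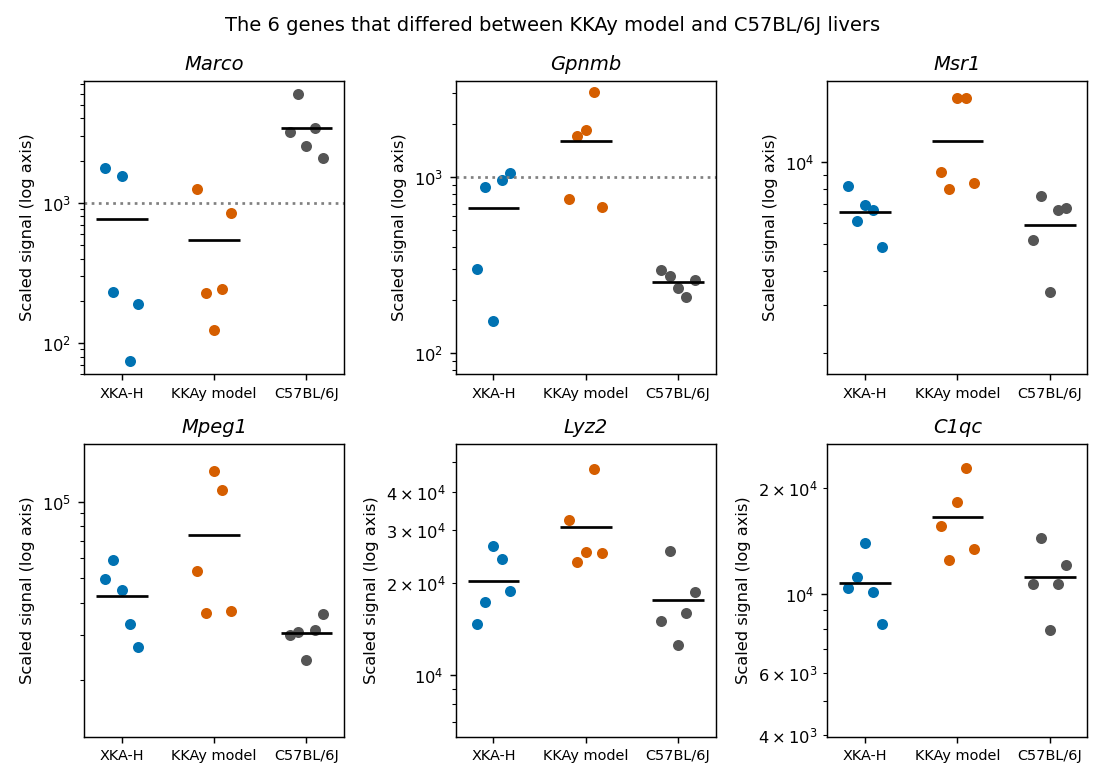
Scaled signal of each array (points, log axis) and the group mean (line) for the 6 genes called between KKAy model and C57BL/6J livers, in XKA-H, KKAy model and C57BL/6J livers, n = 5 each; the dotted line marks 1000. Marco is highest in C57BL/6J livers, and the other 5 genes have their highest mean in KKAy model livers.

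The remaining 26 genes did not pass between KKAy model and C57BL/6J livers. Among Kupffer cell identity genes, Cd5l, a secreted scavenger protein, averaged 73893 ± 37801 in KKAy model and 41148 ± 12234 in C57BL/6J livers (SD, n = 5 each), with a log2 change of 0.74 and an adjusted p of 0.143 from limma. Clec4f, a lectin found on Kupffer cells of rodents, averaged 28746 ± 12491 and 17987 ± 3762 in the same order (log2 change 0.60, adjusted p = 0.193 from limma). The log2 change was 0.59 for Timd4, a receptor for dying cells, 0.24 for Vsig4, a complement receptor, 0.15 for Adgre1 and -0.02 for Cd163, the haemoglobin scavenger receptor, with adjusted p of 0.252 or more from limma. Marco was thus the only one of the 7 identity genes that was called, and it was lower in the KKAy model.

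Among the genes of macrophages in general, Cd68 (a lysosomal glycoprotein), Ctss (cathepsin S) and Aif1 (an actin-binding protein) had log2 changes of 0.58, 0.55 and 0.60, and Csf1r and Laptm5 of 0.14 and -0.25. Cybb, the catalytic subunit of the phagocyte oxidase, lay just outside the threshold with a log2 change of 0.75 ± 0.25 (standard error; limma adjusted p = 0.0525). The adaptor Tyrobp had a log2 change of 0.67 (adjusted p = 0.085 from limma), and the Fc receptor genes Fcgr1 and Fcer1g had 0.42 and 0.11. A second, dimmer Fcgr1 probe set had the opposite sign and was not called as a row of its own (log2 change -1.55, limma adjusted p = 0.209). The values were 0.54 for Cd9, a tetraspanin of lipid-associated macrophages, and 0.40 for Cd14, the co-receptor for lipopolysaccharide, and neither was called. Trem2, a lipid-sensing receptor that is often paired with Gpnmb as a marker, was not called and by its brighter probe set had the opposite sign to Gpnmb (log2 change -1.75 with a standard error of 0.70, limma adjusted p = 0.116), with signals of 1528, 249, 45.0, 452 and 655 in KKAy model livers and 1543, 1092, 856, 866 and 1735 in C57BL/6J livers. The groups overlapped through KKAy model replicate 1. A second, dimmer Trem2 probe set did not share that sign, at 298 ± 128 in KKAy model and 270 ± 120 in C57BL/6J livers (SD, n = 5 each), with a log2 change of 0.09 as a row of its own (limma adjusted p = 0.958).

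The genes of monocyte recruitment and the integrins were close to or below the middle of the array. Ccl2, the main monocyte chemokine, was at 76.7, 179, 961, 1531 and 272 in KKAy model livers, against 865, 76.6, 58.8, 281 and 183 in C57BL/6J livers (log2 change 0.96 with a standard error of 0.82, limma adjusted p = 0.524). Its spread within a group was larger than the difference between groups. The receptor Ccr2 averaged 1235 ± 421 in KKAy model and 990 ± 208 in C57BL/6J livers (SD, n = 5 each). The receptor Cx3cr1 and the integrins Itgam and Itgax had log2 changes between -0.35 and -0.13 with adjusted p of 0.565 or more, and Mmp12, a macrophage elastase, one of 1.38 (adjusted p = 0.31 from limma).

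The second comparison asked what XKA did in KKAy mice. None of the 32 genes was called in XKA-H livers relative to KKAy model livers, where 0.066% of all genes were called higher and 0.11% lower. The lowest adjusted p was 0.245 (limma). The 32 genes nevertheless leaned one way: 27 had a negative log2 change, with a median of -0.53 against -0.06 for all genes, and among the 25 brighter genes 24 were negative, Marco being the exception. Of all genes on the array 58.4% were negative, and of those with a mean above 1000 it was 61.6%. Of 63 measured markers of other cell types 69.8% were negative, with a median log2 change of -0.20, but the lists differed. Negative were 7 of 8 neutrophil genes (median -0.56) and 7 of 8 T and NK cell genes (median -0.44). So were 4 of 5 adipocyte, 5 of 7 hepatocyte, 7 of 10 stellate cell and 2 of 3 red blood cell genes. It was 4 of 6 for B cell genes (median -0.06) and 4 of 7 for dendritic cell genes (median -0.11). Genes of sinusoidal endothelium did not share the lean, with 4 of 9 negative and a median of 0.03. At an unadjusted p under 0.05, 15 of the 32 genes were lower and 0 higher in XKA-H livers. That is 46.9% of the list, against 5.84% of all genes that were lower at that level. Since these genes moved together from liver to liver, the count carries less information than 15 separate genes would. The median log2 change was -0.35 without KKAy model replicate 4 and -0.40 without KKAy model replicate 3. Here too no fit left out both.

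**Figure D4:**
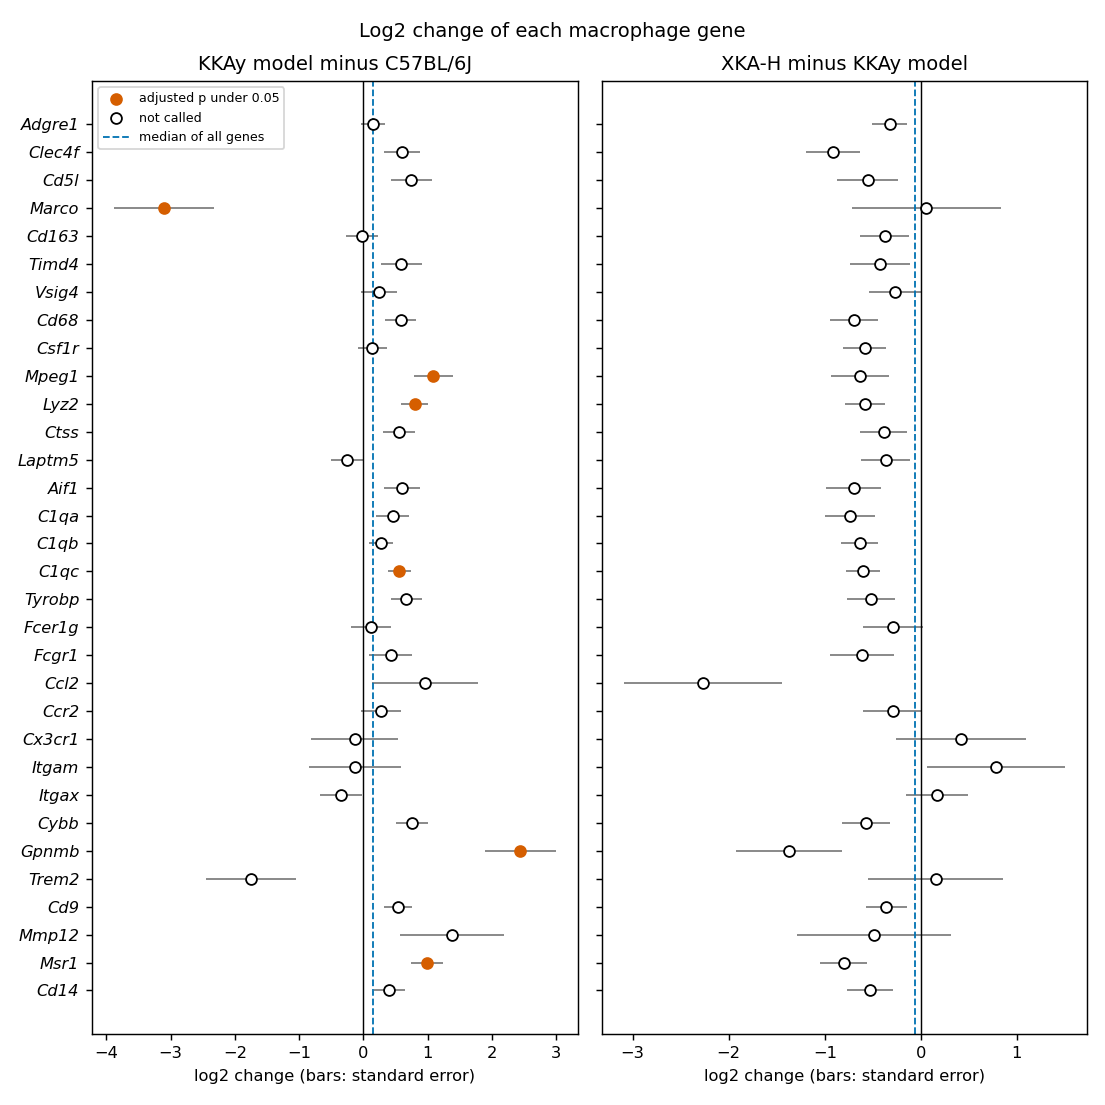
Log2 change of each of the 32 genes with its standard error, for KKAy model minus C57BL/6J livers on the left and XKA-H minus KKAy model livers on the right. Filled points have an adjusted p under 0.05 and the dashed line is the median of all genes, 0.15 on the left and -0.06 on the right; no point is filled on the right, where 27 of 32 genes lie below 0.

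Among the identity genes the largest difference was that of Clec4f. Its signals were 8942, 23418, 22387, 10023 and 12283 in XKA-H livers, against 27608, 17412, 32037, 48191 and 18482 in KKAy model livers. The groups overlapped, with XKA-H replicates 1, 4 and 5 below every KKAy model liver. This amounted to a log2 change of -0.91 (standard error 0.28, unadjusted p = 0.00447 and adjusted p = 0.274 from limma). Cd5l, Timd4, Cd163, Adgre1 and Vsig4 had log2 changes between -0.55 and -0.27.

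All 3 C1q chains had a negative log2 change of like size in XKA-H livers, and none was called. C1qb averaged 16075 ± 3864 in XKA-H and 24829 ± 4777 in KKAy model livers (SD, n = 5 each), with a log2 change of -0.64 ± 0.19 (standard error; limma adjusted p = 0.245). C1qa and C1qc had log2 changes of -0.74 and -0.60 (adjusted p = 0.362 and 0.245 from limma). C1qc signals were 10395, 11214, 13936, 10156 and 8235 in XKA-H livers, so that XKA-H replicate 3 alone lay within the KKAy model range given above.

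Msr1 signals were 8159, 6067, 6995, 6662 and 4899 in XKA-H livers, with replicate 1 alone inside the range of the KKAy model livers. The fitted log2 change was -0.80 ± 0.25 (standard error; limma adjusted p = 0.267). The other Msr1 probe sets did not all follow: as rows of their own they had log2 changes of -1.09, -0.46 and -0.04, none called. The last of them stayed at 1655 ± 482 in XKA-H and 1712 ± 508 in KKAy model livers (SD, n = 5 each).

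By their brightest probe sets, the genes of macrophages in general had log2 changes between -0.70 and -0.37 and none was positive. A dimmer Laptm5 probe set had a positive one as a row of its own (0.29, limma adjusted p = 0.926), whereas its other probe sets were negative. Cd68 averaged 2982 ± 932 in XKA-H and 4870 ± 1607 in KKAy model livers (SD, n = 5 each), with a log2 change of -0.70 ± 0.25 (standard error; limma adjusted p = 0.373). Mpeg1 was at 49785, 58910, 45189, 33099 and 26890 in XKA-H livers, with replicates 4 and 5 below every KKAy model liver. Lyz2 was at 14658, 17338, 26480, 24086 and 18809 in XKA-H livers, with replicates 3 and 4 inside the KKAy model range. Csf1r, the receptor that macrophages need to survive, averaged 51279 ± 14581 in XKA-H and 77974 ± 24894 in KKAy model livers (SD, n = 5 each; log2 change -0.59, adjusted p = 0.439 from limma). The Fc receptor gene Fcgr1 had a log2 change of -0.62 by its brightest probe set and 0.97 by the dimmer one as a row of its own, neither called.

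Gpnmb was at 299, 885, 151, 969 and 1052 in XKA-H livers. Replicates 2, 4 and 5 lay inside the KKAy model range and replicates 1 and 3 below it (log2 change -1.38 with a standard error of 0.55, limma adjusted p = 0.463). Ccl2 was dim in every XKA-H liver, at 99.1, 45.6, 58.8, 112 and 70.4, whereas KKAy model replicates 3 and 4 were at 961 and 1531 (log2 change -2.27 with a standard error of 0.82, limma adjusted p = 0.389). These signals are so dim that the size of the fold is uncertain. Of the dim genes, Cx3cr1, Itgam, Itgax and Trem2 had positive log2 changes, of 0.42, 0.78, 0.17 and 0.15, and none was called.

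The third comparison set XKA-H livers against C57BL/6J livers. Of all genes 5.53% were called higher and 1.95% lower (1006 and 355 genes, against 703 and 780 in the values as deposited and 1020 and 805 after quantile normalization), whereas 0 of the 32 genes were called higher and 1, Marco, lower. At an unadjusted p under 0.05, 3 of the 32 genes passed, all of them lower in XKA-H livers: Marco, Laptm5 and Trem2. That is 9.38% of the list, against 19.4% of all genes at that level, of which the lower ones made up 5.49% of all genes. The median log2 change of the 32 genes was -0.07, against 0.10 for all genes. Marco was at 1770, 232, 1543, 74.1 and 191 in XKA-H livers, below every C57BL/6J liver (log2 change -3.05 with a standard error of 0.78, limma adjusted p = 0.0189). The difference between XKA-H and KKAy model livers was 0.06 (standard error 0.78) for Marco. The call against C57BL/6J was lost without XKA-H replicate 4 (adjusted p = 0.0519) and without C57BL/6J replicate 2 (adjusted p = 0.0521). The second Marco probe set was not called against C57BL/6J as a row of its own (log2 change -0.31, limma adjusted p = 0.87).

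A reverse rate, as used in the methods of the study, divides the KKAy model mean minus the XKA-H mean by the KKAy model mean minus the C57BL/6J mean, so that a value of 1 means that the XKA-H mean equals the C57BL/6J mean. The KKAy model arrays enter both parts of the ratio, and it was given no test. For the 6 genes called between KKAy model and C57BL/6J livers it was 1.07 for C1qc, 0.893 for Msr1, 0.794 for Lyz2, 0.718 for Mpeg1, 0.691 for Gpnmb and 0.077 for Marco. When 1 array was left out, Msr1 ran between 0.825 and 0.998, Gpnmb between 0.579 and 0.762 and Marco between -0.0101 and 0.136. With the mean of the probe sets of a gene in place of the brightest one, the rate was 0.56 for Msr1, 0.539 for Gpnmb and 0.171 for Marco. The same 5 KKAy model arrays also tie the first comparison to the second, so that the higher means of 26 of the 32 genes in KKAy model livers than in both other groups are not independent evidence of either difference.

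Of 88 further macrophage and monocyte genes in 6 lists, 79 were measured. In KKAy model livers 12 were called higher and 0 lower than in C57BL/6J livers, which is 15.2% of the 79, beside 10.6% of all genes called higher and 2.43% called lower. Of all genes with a mean above 1000, 19.0% were called in either direction. The other lipid-associated macrophage genes held 5 of these 12 calls among 12 measured genes, led by Cd36, a fatty acid transporter that hepatocytes also express, at 74099 ± 11311 in KKAy model and 16066 ± 4717 in C57BL/6J livers (SD, n = 5 each; log2 change 2.24, adjusted p = 1.79e-07 from limma). The cholesterol exporters Abca1 and Abcg1 and the galectin Lgals3 changed by 0.78, 0.77 and 0.88. Slc40a1, the iron exporter ferroportin, was called among 14 other Kupffer cell genes (log2 change 1.04), and Csf2rb, a cytokine receptor chain, among 11 transcription factor and growth factor genes (log2 change 1.01). Plac8 was called among 9 monocyte genes (log2 change 1.10), the chemokines Ccl6 and Ccl7 among 16 chemokines and cytokines (1.30 and 1.43), and Cyba and Cd300a among 17 genes of pattern recognition and phagocyte signalling (0.75 and 0.54). Liver RNA does not show which cells the signals of these 12 genes came from. Abca1 and Slc40a1 averaged 179950 ± 33593 and 201600 ± 46093 in KKAy model livers (SD, n = 5 each), above the 77974 of Csf1r.

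In XKA-H livers 1 of these 79 genes was called relative to the KKAy model, Lpl, lipoprotein lipase, which was lower at 16074 ± 7078 in XKA-H and 44255 ± 13380 in KKAy model livers (SD, n = 5 each; log2 change -1.54, adjusted p = 0.0297 from limma). It is not confined to macrophages. Relative to C57BL/6J livers, Cd36, Abca1 and Slc40a1 were higher and Lpl was lower in XKA-H livers.

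Markers of other cells were called about as often as genes in general. Of 63 measured markers of 9 other cell types, 7 (11.1%) were called higher and 0 lower in KKAy model than in C57BL/6J livers, beside 10.6% and 2.43% of all genes, and 0 were called between XKA-H and KKAy model livers. The neutrophil alarmin S100a8 was at 12129 ± 5157 in KKAy model and 2661 ± 886 in C57BL/6J livers (SD, n = 5 each), the 1 call among 8 neutrophil genes. The summed signal of those 8 genes ranged between 7921 and 26428 in XKA-H, between 14882 and 33507 in KKAy model and between 8043 and 12869 in C57BL/6J livers. The XKA-H range thus overlapped both others, whereas those of KKAy model and C57BL/6J livers did not overlap. Without S100a8 these last ranges overlapped as well, at 5128 to 10722, 5662 to 13696 and 6498 to 9288 in XKA-H, KKAy model and C57BL/6J livers. S100a9, the partner of S100a8, was not called (log2 change 0.44, limma adjusted p = 0.505). Neutrophils also make Lyz2, and their part in the Lyz2 difference was not tested. The other calls were Stab2 and Clec4g of the 9 genes of sinusoidal endothelium, Col3a1 of 10 stellate cell genes, Alas2 of 3 red blood cell genes, and Cidec and Fabp4 of 5 adipocyte genes. None of the 7 hepatocyte, 8 T and NK cell, 6 B cell or 7 dendritic cell genes was called.

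Promoter sequences are shown for the called genes because the 200 bases before a start site are where a factor shared by macrophage genes would be looked for. PU.1 is the factor that macrophages and monocytes need to form. The letters GAGGAA on one strand or TTCCTC on the other, which it can bind, are in capitals. Shorter or variant forms of its site were not searched for. Sequences are from RefSeq (GRCm38.p6), 5′ to 3′ on the strand of the gene, and the C1qc window ends at the start that the RefSeq promoter table uses, which lies inside the annotated span of the gene. Of the 6 called genes 5 were matched, all but Msr1.

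Gpnmb, chr6:49036318-49036517, strand plus: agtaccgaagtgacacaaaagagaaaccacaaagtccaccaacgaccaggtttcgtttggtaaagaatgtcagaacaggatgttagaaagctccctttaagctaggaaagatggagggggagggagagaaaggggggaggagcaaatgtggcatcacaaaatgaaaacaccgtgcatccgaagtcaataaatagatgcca

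Mpeg1, chr19:12460570-12460769, strand plus: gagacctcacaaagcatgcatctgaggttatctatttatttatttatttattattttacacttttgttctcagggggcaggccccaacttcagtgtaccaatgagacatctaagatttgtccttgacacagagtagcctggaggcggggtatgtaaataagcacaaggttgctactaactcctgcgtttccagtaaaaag

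Lyz2, chr10:117282273-117282472, strand minus: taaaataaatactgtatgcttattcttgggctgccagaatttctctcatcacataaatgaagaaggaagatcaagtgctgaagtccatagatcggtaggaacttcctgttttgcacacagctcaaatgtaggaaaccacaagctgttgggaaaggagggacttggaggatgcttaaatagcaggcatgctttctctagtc

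C1qc, chr4:136892915-136893114, strand minus: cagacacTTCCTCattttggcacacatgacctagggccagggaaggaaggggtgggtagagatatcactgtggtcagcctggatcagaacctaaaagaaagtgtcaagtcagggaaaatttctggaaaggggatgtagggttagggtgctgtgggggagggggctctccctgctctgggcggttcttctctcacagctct

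Marco, chr1:120505025-120505224, strand minus: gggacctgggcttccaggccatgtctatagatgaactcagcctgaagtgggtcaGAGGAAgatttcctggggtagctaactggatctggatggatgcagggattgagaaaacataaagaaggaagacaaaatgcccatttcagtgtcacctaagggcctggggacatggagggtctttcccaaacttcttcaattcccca

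The letters GAGGAA or TTCCTC stood once in the windows of Marco and C1qc, 146 and 193 bases before the start. These exact letters did not stand in the windows of Gpnmb, Mpeg1 and Lyz2. Thus Marco, which was lower in KKAy model livers, and C1qc, which was higher, both held them. Of the 26 promoters matched to 25 of the 32 genes, 12 (46.2%) held these letters, against 19.0% of 32851 mouse promoters of the same length. The letters TGANTCA, read by AP-1, stood in 5 of the 26 promoters (19.2%, against 5.48%), and TCANGTG or its reverse CACNTGA, read by MITF and its relatives, in 4 (15.4%, against 10.1%). These are matches of letters and were not tested as binding sites.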

How the data were processed

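Liver RNA of 15 mice was measured on 1-colour arrays, 1 mouse per array. The deposited file holds 1 linear intensity per probe set and array, with array medians between 127 and 182. Their methods name ArrayTrack and a scaling to a median of 1000, which these values do not have, and how probes were summarised and background was subtracted was not given in the sources used here. Each array was therefore scaled to a median of 1000 and taken to log2. The 64 control probe sets were left out. Of the rest, 34945 probe sets had 1 gene symbol, 932 several and 9160 none, and 34741 were named through Entrez identifiers. Each of 18193 genes was represented by its brightest probe set. All 15 arrays entered 1 fit in limma 3.58.1 (R 4.3.3) with an intensity trend, two-sided, with Benjamini-Hochberg adjustment over all genes and a threshold of 0.05. The fit was tested on simulated data. Over all genes the standard error had a median of 0.28 on the log2 scale, and the number of arrays limits the precision. The Dunnett comparison of the methods used mvtnorm 1.3.3. Tables were made with pandas 2.3.3 and plots with matplotlib 3.10.9, both in Python 3.11.15.

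The 32 genes, the other lists and the tests were chosen with earlier results of these data known. All 32 genes could be named. Of each other list, up to 4 genes per comparison past the threshold with the largest change could be named, as could the defining markers of each cell type. Alternatives covered the scaling, the probe sets, dim genes, the test and its prior, weights for arrays, a block for the replicate number and leaving out every array once. The split of brighter and dim genes was added after the values were seen. Serum, cell and lower-dose experiments were not analysed here.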

Additional observations from a re-analysis of the deposited data

Results flagged for a closer look

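In the C57BL/6J group, replicate 3 had a C1qa signal of 12192, whereas the other 4 livers lay between 19574 and 23406. Its gap to the nearest of them was 0.726 of the range of the group, above the critical value of 0.71 for 5 arrays. It was the only such case among 96 combinations of gene and group. Chance alone gives about 1 in 20, so 1 case is not more than chance would give. The array of this liver had the highest deposited median of all arrays, 182, against 146 to 163 in the other C57BL/6J livers. Scaling therefore lowered its signals the most, and whether the case stands in the values as deposited was not tested. The same liver was the lowest of its group for 18 of the 25 brighter genes. This was not confined to macrophage genes. It was the lowest for 5570 of all 18193 genes, more than any other liver of the group, with a median deviation of -0.17 over all genes. It was also the lowest for 6 of 7 hepatocyte genes, but for 0 of 10 stellate cell genes.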

How the results depend on the processing

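The precision was limited by 5 arrays a group, a median standard error of 0.28 and the absence of detection calls for dim genes. The median log2 change of the 32 genes kept its sign under every alternative tried. Between KKAy model and C57BL/6J livers the 5 genes called higher became 3 with the mean of the probe sets of a gene, 2 with no intensity trend, 3 when replicate 3 of the KKAy model and replicate 1 of XKA-H were both left out, and 1 with the methods' Dunnett comparison adjusted over genes, and ran between 2 and 7 when 1 array was left out. The lowest count, 2, came without C57BL/6J replicate 3, and the count was 3 without KKAy model replicate 3 or 4. The 1 gene called lower became 0 with the mean of the probe sets and 0 with the adjusted Dunnett comparison, and 1 to 2 when 1 array was left out (2 without KKAy model replicate 1, with Trem2). Between XKA-H and KKAy model livers no alternative but one made a call: the Dunnett comparison without adjustment over genes called 6 genes lower, C1qb, C1qc, Ccl2, Cd68, Clec4f and Msr1. Between XKA-H and C57BL/6J livers the 1 gene called lower became 2 with the values as deposited, 3 with quantile normalization (Marco, Laptm5 and Csf1r), 2 with each probe set as its own row, and 0 with the mean of the probe sets, with no intensity trend and with the adjusted Dunnett comparison, and 0 to 1 when 1 array was left out. With each probe set as its own row, 1 gene, Msr1, was called higher. The reverse rate of Msr1 was 0.56 with the mean of the probe sets, against 0.893 with the brightest one. The reverse rate of Marco was -0.0477 without the 2 arrays named above and ran between -0.0101 and 0.136 when 1 array was left out. The cause of these changes was not tested.

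The scaling moved the background of all genes. In the scaled values, the values as deposited and those after quantile normalization, the median log2 change between KKAy model and C57BL/6J livers was 0.50, 0.30 and 0.35 for the 32 genes and 0.15, -0.04 and 0.04 for all genes, and between XKA-H and KKAy model livers it was -0.53, -0.49 and -0.48 for the 32 genes. In that last comparison the calls over all genes were 12 higher and 20 lower, 23 and 40, and 46 and 67. With the replicate block, 5 genes were called higher and 1 lower between KKAy model and C57BL/6J livers, with Cybb in the place of C1qc (adjusted p = 0.0805). Livers of the same replicate number did not deviate together (correlations between -0.045 and 0.092). This gave no sign that the numbers pair the mice, but it cannot exclude it. Gpnmb, Msr1 and Marco stayed called between KKAy model and C57BL/6J livers in all 15 fits that left out 1 array, but not under every other alternative: with the mean of the probe sets the adjusted p was 0.173 for Gpnmb and 0.051 for Marco, and with the adjusted Dunnett comparison 0.0838 for Msr1 and 0.0926 for Marco.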
